A study of Homo sapiens with 3 samples.

Results

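Proteasome subunit genes were described across 3 libraries of CaSki, an established cervical carcinoma line of epidermoid type. Symbols made of PSM, a letter from A to E and digits were taken, without the interferon-inducible catalytic subunits PSMB8, PSMB9 and PSMB10, which gave 40 genes of 23277. The 3 groups were cells with the empty retroviral vector pMSCV given an siRNA against GFP (empty vector cells), cells with pMSCV/FLAG-NANOG given the same GFP siRNA (NANOG cells), and pMSCV/FLAG-NANOG cells given an siRNA against HDAC1 (HDAC1 siRNA cells). NANOG is a transcription factor of pluripotent cells and HDAC1 a histone deacetylase, and the study asked which genes they regulate together. Total RNA of each group was sequenced in 1 library, so nothing below could be set against a spread between replicates, and neither errors nor p-values are given. An HDAC1 siRNA in empty vector cells was not analysed here.

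The proteasome is the protease that degrades ubiquitin-tagged proteins in the cytoplasm and nucleus. Its barrel-shaped core is built from stacked rings of alpha subunits, which gate the entrance, and beta subunits, of which PSMB5, PSMB6 and PSMB7 carry the active sites. A regulatory particle caps the core: its base holds a ring of ATPases that unfold the substrate, and its lid holds the deubiquitinase that removes the ubiquitin chain. Activators of the PSME family can cap the core in place of the regulatory particle. When the proteasome is inhibited, the transcription factor NFE2L1 is known to raise its subunit genes together through antioxidant response elements.

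Values were FPKM (fragment counts scaled by transcript length and by mapped fragments), so that levels of different genes can be set side by side. The libraries summed to 600749 to 681947 FPKM. The number of fragments behind a value was unknown. Among 2156 genes above 0 and under 0.3 FPKM in all libraries, the most frequent ratio between libraries was 1.02-fold or less. It was shared by 11.4% to 14.8% of these genes. Only ratios under 1.2-fold were searched, so a larger difference in depth could not have been found. The level of NANOG was 0.0357 FPKM in empty vector, 298 FPKM in NANOG and 325 FPKM in HDAC1 siRNA cells. That of HDAC1 was 19.02, 108 and 12.8 FPKM, so the NANOG library stood apart in the gene that the siRNA targets, and the comparison of HDAC1 siRNA cells with empty vector cells, which does not use that library, is also given for every role and list. Of 7 epithelial markers 6 were at 1 FPKM or more in all libraries. The exception was TP63, at 1.29, 0.785 and 1.004 FPKM. Some of these markers differed more between libraries than any subunit: KRT5 was at 555, 959 and 540 FPKM and KRT6A at 23.6, 39.8 and 24.5 FPKM, high in the NANOG library alone, and KRT17 was at 1359, 917 and 1065 FPKM and KRT14 at 114, 76.9 and 80.4 FPKM. Their part in the results below was not tested. The fibroblast markers summed to 0.0617 to 0.976 FPKM and the endothelial markers to 0.289 to 0.493 FPKM. Most of the highest fibroblast sum was COL1A2, at 0.0198 FPKM in empty vector, 0.948 FPKM in NANOG and 0.00649 FPKM in HDAC1 siRNA cells. Among the leukocyte markers PTPRC and CD3E were at 0.0251 FPKM or less, and CD68 was at 50.7 to 61.2 FPKM.

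Sequences around the starts of 4 subunit genes are shown first, because proteasome genes are known to share promoter elements and most differed in the same direction between NANOG and empty vector cells. RefSeq promoters of GRCh38.p14 (250 bases before to 50 after the start) matched 33 of the 38 subunit genes that averaged 1 FPKM or more over the libraries. PSMA7, PSMB1, PSMB6, PSMB7 and PSMD4 had no entry. A loose form of the antioxidant response element core, TGANNNNGC with any base at each N, was searched on both strands. It was in a promoter of 22 of the 33 genes (66.7%), against 47.1% of 27305 genes in the table. CCAAT, on both strands, was in 17 of 33 (51.5%, against 39.7%), and the GC box GGGCGG in 22 of 33 (66.7%, against 48.3%). All 3 motifs were thus more frequent among the 33 genes. The 27305 genes were not filtered by level, unlike the 33, and shares among expressed genes alone were not computed. The 4 promoters below are those of the genes with the most TGANNNNGC matches (PSMA5 with 5 and PSMD9 with 4), of the gene with the largest positive difference between NANOG and empty vector cells among those matched (PSMC1, with 0) and of the gene with the most negative (PSME1, with 1). Capitals mark TGANNNNGC on either strand. In PSMA5 a marked match holds a CCAAT.
PSMA5 (chr1:109426399-109426698, minus strand): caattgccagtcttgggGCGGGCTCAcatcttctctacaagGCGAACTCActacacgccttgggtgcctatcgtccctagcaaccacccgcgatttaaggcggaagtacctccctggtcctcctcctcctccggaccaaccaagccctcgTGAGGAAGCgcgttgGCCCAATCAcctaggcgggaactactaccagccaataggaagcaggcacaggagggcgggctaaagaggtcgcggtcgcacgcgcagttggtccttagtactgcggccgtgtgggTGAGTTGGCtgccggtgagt
PSMD9 (chr12:121888540-121888839, plus strand): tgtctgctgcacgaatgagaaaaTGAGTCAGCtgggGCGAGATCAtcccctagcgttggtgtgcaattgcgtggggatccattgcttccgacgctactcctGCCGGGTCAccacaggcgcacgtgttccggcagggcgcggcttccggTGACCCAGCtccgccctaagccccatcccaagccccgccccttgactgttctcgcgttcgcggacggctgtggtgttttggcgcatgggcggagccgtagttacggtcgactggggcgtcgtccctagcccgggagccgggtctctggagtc
PSMC1 (chr14:90256303-90256602, plus strand): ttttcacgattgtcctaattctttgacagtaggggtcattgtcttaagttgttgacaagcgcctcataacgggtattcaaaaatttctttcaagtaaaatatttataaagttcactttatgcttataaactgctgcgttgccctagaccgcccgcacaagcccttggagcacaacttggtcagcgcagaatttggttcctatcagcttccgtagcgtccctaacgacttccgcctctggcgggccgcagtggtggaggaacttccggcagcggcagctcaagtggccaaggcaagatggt
PSME1 (chr14:24135944-24136243, plus strand): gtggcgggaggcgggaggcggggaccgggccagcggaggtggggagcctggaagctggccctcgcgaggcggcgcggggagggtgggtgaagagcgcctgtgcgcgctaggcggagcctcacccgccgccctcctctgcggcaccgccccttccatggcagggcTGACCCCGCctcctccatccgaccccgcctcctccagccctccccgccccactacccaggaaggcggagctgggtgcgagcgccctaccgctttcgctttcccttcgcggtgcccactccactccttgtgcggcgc
A match describes letters and not a bound site. Genes with TGANNNNGC had a median difference of 0.18 on the log2(FPKM + 1) scale between NANOG and empty vector cells, and those without it 0.16. These medians and those below leave out the 5 genes without an entry, among them the largest difference of all subunit genes. Their differences with NANOG were 0.46 for PSMB6, 0.43 for PSMD4, 0.39 for PSMB7, 0.35 for PSMA7 and 0.23 for PSMB1. The medians were 0.19 with and 0.16 without CCAAT, and 0.16 with and 0.19 without GGGCGG. Between HDAC1 siRNA and empty vector cells they were 0.17 and 0.12 for TGANNNNGC, 0.19 and 0.09 for CCAAT, and 0.13 and 0.16 for GGGCGG.

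With NANOG, the RNA values of most subunit genes were a little higher, and protein was not measured. Of the 38 genes kept, 33 were higher in NANOG than in empty vector cells, where 49.2% of the 11400 genes outside small RNAs that averaged 1 FPKM or more were higher. The median difference was 0.19 (1.14-fold in FPKM), against -0.01 for all genes. The differences ran from -0.17 for PSME1 to 0.46 for PSMB6, so none reached 2-fold, which 0.675% of all genes passed upward and 1.22% downward. A difference of at least 1.2-fold was found for 13 subunit genes (34.2%), all of them higher, against 17.6% of all genes higher and 19.9% lower. The upper quartile of all genes was exceeded by 20 of the 38, and none lay under the lower quartile. In bulk RNA, more cells with a high value and more RNA per cell cannot be told apart.

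**Figure D1:**
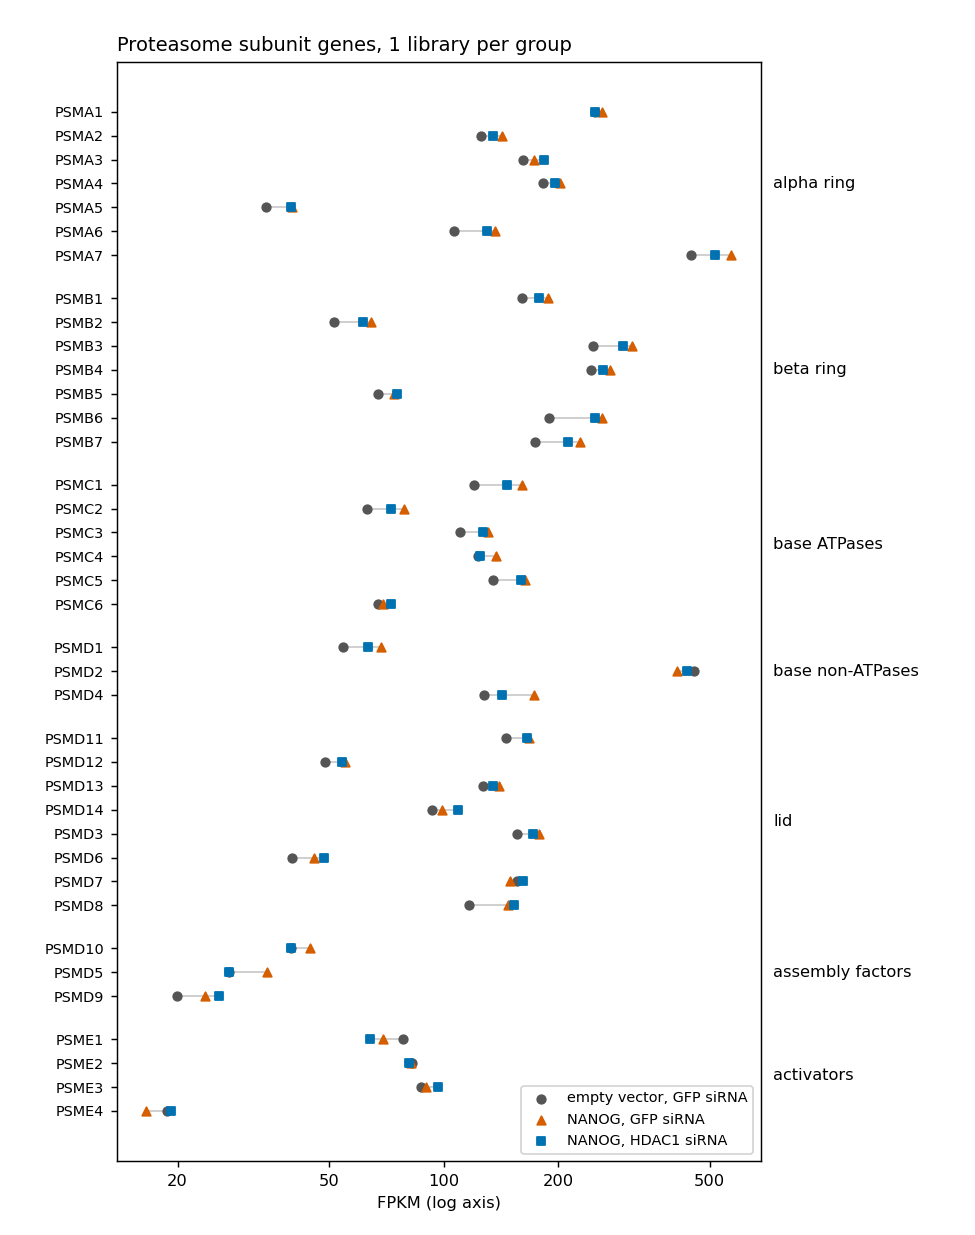
Level of each of the 38 subunit genes in FPKM (log axis), with 1 point per library and genes grouped by role. The point of empty vector cells is the lowest of the 3 in 33 genes, and the activators PSME1, PSME2 and PSME4 at the bottom are among the exceptions.

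The libraries fell in the same order for most members. Empty vector cells were lowest in 33 of 38 genes, against 38.7% of all genes. The order from empty vector over HDAC1 siRNA to NANOG cells was found for 25 of 38, against 22.6% of all genes, and these were also all the genes highest in NANOG cells (33.1% of all genes). Another 8 were lowest in empty vector and highest in HDAC1 siRNA cells, namely PSMA3, PSMB5, PSMC6, PSMD6, PSMD8, PSMD9, PSMD14 and PSME3. The remaining 5 were PSMD2, PSMD7, PSME1, PSME2 and PSME4. The order of the NANOG libraries depended on the scaling and is given throughout as deposited. In TPM (values scaled to the same sum in each library) empty vector cells were lowest in 32 of 38 genes (40.8% of all genes). However, NANOG cells were highest for PSMD4 and PSMD5 alone (14.9% of all genes) and HDAC1 siRNA cells for 35 (57.97% of all genes). The sum used for TPM includes small RNAs, which took 21.2% of FPKM in empty vector, 23.1% in NANOG and 16.0% in HDAC1 siRNA cells. Their part in the changes under TPM was not tested.

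All 7 alpha ring genes kept were higher in both NANOG libraries than in empty vector cells. PSMA7 was the most abundant, at 446 FPKM in empty vector, 569 FPKM in NANOG and 515 FPKM in HDAC1 siRNA cells, a difference of 0.35 with NANOG. PSMA6 stood at 107, 136 and 130.3 FPKM (libraries in this order throughout), also 0.35. Both had the largest differences of the ring, and the HDAC1 siRNA library lay nearer to NANOG than to empty vector cells. PSMA5 was the least abundant, at 34.1, 40.03 and 39.6 FPKM (0.22), so the NANOG libraries lay close together. PSMA2 was at 125, 142 and 135 FPKM (0.18) and PSMA4, whose tail helps to close the gate, at 183, 202 and 196 FPKM (0.14). PSMA3 was at 162, 173 and 184 FPKM and was thus highest with HDAC1 siRNA. PSMA1 differed least, at 249 FPKM in empty vector, 261 FPKM in NANOG and 249.8 FPKM in HDAC1 siRNA cells, and its outer libraries were nearly equal. PSMA8, the alpha subunit of testis, was listed at 0 in all 3 libraries.

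The beta ring had the larger differences of the core, with a median of 0.31 against 0.18 for the alpha ring with NANOG, and 0.25 against 0.18 with NANOG and HDAC1 siRNA against empty vector cells; this difference between rings was not tested. Of the catalytic subunits, PSMB6 (caspase-like activity) was at 189 FPKM in empty vector, 260.0 FPKM in NANOG and 249.8 FPKM in HDAC1 siRNA cells. That is 0.46 or 1.37-fold with NANOG, the largest difference of all subunit genes, and 0.40 with HDAC1 siRNA against empty vector cells. PSMB7 (trypsin-like activity) was at 174, 228 and 212 FPKM (0.39 with NANOG). PSMB5 (chymotrypsin-like activity), the target of bortezomib, was at 67.3, 74.1 and 75.2 FPKM and differed by only 0.14. The catalytic genes therefore did not differ by the same amount, and PSMB5 stood lowest of them in every library. The structural subunit PSMB3 was at 247, 313 and 296 FPKM (0.34) and PSMB2 at 51.5, 64.3 and 61.6 FPKM (0.31). PSMB1 was at 161, 188 and 178 FPKM (0.23) and PSMB4 at 244, 274 and 262 FPKM (0.17). All 7 genes were lowest in empty vector cells. PSMB11, the beta subunit of the thymus cortex, was at 0.0200 and 0.0196 FPKM in the GFP siRNA libraries and listed at 0 with HDAC1 siRNA. The ratio of those 2 values, 1.02, equals the most frequent ratio of low values between these libraries at this rounding. Summed over the 14 core genes kept, the core stood at 2440, 2926 and 2785 FPKM, or 1.199-fold higher with NANOG and 1.14-fold higher with NANOG and HDAC1 siRNA than in empty vector cells.

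All 6 ATPases of the base were higher with NANOG (median 0.26) and with NANOG and HDAC1 siRNA (median 0.20) than in empty vector cells. PSMC1 was at 119.9 FPKM in empty vector, 161 FPKM in NANOG and 147 FPKM in HDAC1 siRNA cells (0.42 with NANOG). PSMC2 was at 62.8, 78.6 and 72.6 FPKM (0.32), PSMC5 at 135, 163 and 159 FPKM (0.28) and PSMC3 at 111, 130.5 and 127 FPKM (0.24). PSMC4 was at 123, 137 and 125 FPKM (0.15), and its HDAC1 siRNA value was almost that of empty vector cells. PSMC6 differed least, at 67.1, 69.1 and 72.8 FPKM (0.04, a difference that turned negative when libraries were rescaled to TPM). The levels of the ATPases spanned 2.14-fold in empty vector cells, against 4.79-fold in the beta ring and 13.06-fold in the alpha ring.

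The other base genes went different ways (median 0.33 with NANOG and 0.15 with NANOG and HDAC1 siRNA, 2 of 3 higher in both). PSMD4, a ubiquitin receptor, was at 128 FPKM in empty vector, 172 FPKM in NANOG and 142 FPKM in HDAC1 siRNA cells. Its difference of 0.43 with NANOG was second to that of PSMB6, and its difference was 0.15 in the comparison of HDAC1 siRNA with empty vector cells. The scaffold PSMD1 was at 54.3, 68.4 and 63.3 FPKM (0.33). PSMD2, the scaffold that docks ubiquitin receptors and shuttle proteins, was at 454, 410.05 and 434 FPKM and so was highest in empty vector cells (-0.15 with NANOG). PSMD2 was the most abundant subunit gene of empty vector cells, and PSMA7 that of both NANOG libraries. Apart from PSMD2 and PSMD7, every kept gene of core, base and lid was higher with NANOG in the values as deposited.

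In the lid 7 of 8 genes were higher with NANOG (median 0.18), and all 8 were higher with NANOG and HDAC1 siRNA than in empty vector cells (median 0.17). PSMD8 differed most, at 117 FPKM in empty vector, 148 FPKM in NANOG and 153 FPKM in HDAC1 siRNA cells (0.34 with NANOG). PSMD14, the deubiquitinase of the lid, was at 93.4, 99.1 and 109 FPKM (0.09), highest with HDAC1 siRNA. PSMD11, known to promote assembly of the whole particle, was at 146, 168 and 166 FPKM (0.20). PSMD6 was at 39.9, 45.6 and 48.6 FPKM (0.19), PSMD3 at 156, 178 and 172 FPKM (0.19), PSMD12 at 48.7, 55.01 and 54.1 FPKM (0.17) and PSMD13 at 127, 140.1 and 135 FPKM (0.14). These 4 structural genes and PSMD11 lay within a range of 0.14 to 0.20. PSMD7, the partner of PSMD14, was the exception, at 156, 149.6 and 161 FPKM (-0.06). Summed over the 17 members of base and lid, the values stood at 2138, 2372 and 2341 FPKM. That is 1.11-fold higher with NANOG and 1.10-fold higher with NANOG and HDAC1 siRNA than in empty vector cells. This sum is not that of the whole regulatory particle. It leaves out SHFM1, a lid subunit that is no member by its symbol, at 153, 349 and 151 FPKM. The proteasome-bound ADRM1, at 247, 252 and 268 FPKM, is also left out.

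The 3 assembly factors with PSMD symbols, which guide the ATPases into the base and are not part of the finished particle, were higher with NANOG (median 0.24), but their median with NANOG and HDAC1 siRNA was 0.00. PSMD5 was at 27.3 FPKM in empty vector, 34.3 FPKM in NANOG and 27.3 FPKM in HDAC1 siRNA cells (0.32 with NANOG). PSMD10, also known as the oncoprotein gankyrin, was at 39.6, 44.5 and 39.8 FPKM (0.16). For both, the outer libraries were nearly equal and the NANOG library alone was high. PSMD9 was at 19.9, 23.6 and 25.7 FPKM (0.24) and was highest with HDAC1 siRNA.

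The activators had no common direction, and a count over 4 genes cannot be told apart from the share of all genes. Of 4 genes 3 were lower with NANOG (50.8% of all genes were lower), with a median of -0.09, while the median of core, base and lid was 0.20. With NANOG and HDAC1 siRNA against empty vector cells 2 of 4 were lower, with medians of 0.00 and 0.19. PSME1, a subunit of the interferon-inducible activator, was at 78.3 FPKM in empty vector, 69.4 FPKM in NANOG and 64.0 FPKM in HDAC1 siRNA cells. Its differences from empty vector cells were -0.17 with NANOG and -0.29 with NANOG and HDAC1 siRNA, the lowest of all subunit genes in both comparisons on the log2(FPKM + 1) scale; as a ratio of FPKM with NANOG, PSME4 (0.885) was marginally lower than PSME1 (0.887). Its partner PSME2 was at 82.6, 82.2 and 80.9 FPKM; its difference of -0.01 with NANOG turned positive when libraries were rescaled to the same upper quartile or to a median log2 ratio of 0. The nuclear activator PSME3 was at 87.02, 89.9 and 96.4 FPKM (0.05) and PSME4, the largest of the activators, at 18.7, 16.5 and 19.2 FPKM (-0.17). The activators thus lay between the lower and the upper quartile of all genes with NANOG, as the plot of differences by role shows.

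**Figure D2:**
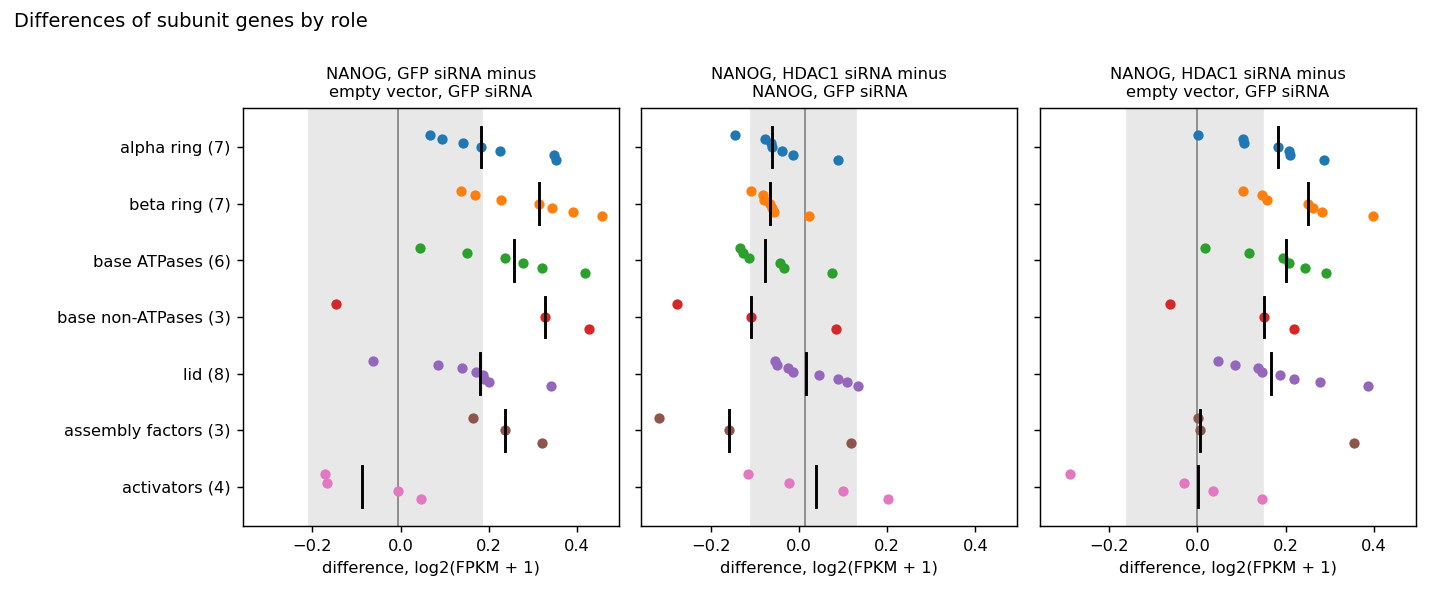
Difference of each subunit gene on the log2(FPKM + 1) scale, by role, in the 3 comparisons (1 point per gene, black bar at the median of the role, gray band from the lower to the upper quartile of all 11400 genes, gray line at their median). In the left and right panels the 14 core genes all lie above 0, and the activators have medians of -0.09 and 0.00.

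Against NANOG cells, HDAC1 siRNA cells had slightly lower values for most subunits. Of 38 genes 27 were lower and 11 higher, where 46.6% of all genes were lower and 53.4% higher, with a median difference of -0.05 against 0.01 for all genes. This direction depended on the scaling. Rescaled to TPM, 36 of 38 were higher (median 0.13), with the median of all genes at 0.18; relative to all genes the members' median stayed lower, at -0.07 as deposited and -0.05 in TPM. Differences of at least 1.2-fold were found for PSMD5 (-0.32) and PSMD4 (-0.28), both lower, against 9.04% of all genes lower and 8.24% higher, so this count of members was under the share of all genes. Both had been among the genes higher with NANOG, and both comparisons use the NANOG library. The largest positive differences were those of PSME4 (0.20), PSMD14 (0.13), PSMD9 (0.12) and PSMD7 (0.11). None of the 38 reached 2-fold, as 0.0877% of all genes did upward and 0.211% downward. By role, the medians were -0.16 for the assembly factors, -0.11 for the other base genes, -0.08 for the ATPases, -0.06 for both rings of the core, 0.02 for the lid and 0.04 for the activators as deposited, and above 0 for every role in TPM.

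HDAC1 siRNA cells remained above empty vector cells for most subunits, in the comparison without the NANOG library. Of 38 genes 35 were higher, against 49.8% of all genes, with a median difference of 0.15 (1.11-fold in FPKM) against -0.00 for all genes. The lower genes, where 50.2% of all genes were lower, were PSMD2 (-0.06), PSME1 (-0.29) and PSME2 (-0.03), and in TPM only PSME1 was lower. At least 1.2-fold higher were 7 genes (18.4%, against 11.8% of all genes), namely PSMB6 (0.40), PSMD8 (0.39), PSMD9 (0.36), PSMC1 (0.29), PSMA6 (0.29), PSMB7 (0.28) and PSMD6 (0.28). PSMB3 lay just under that fold, at 0.26. In TPM the median was 0.29 (0.13 for all genes) and 24 subunit genes were at least 1.2-fold apart, all higher, where 36.7% of all genes were that far apart. At least 1.2-fold lower was PSME1, where 14.8% of all genes were. No subunit gene reached 2-fold, as 0.368% of all genes did upward and 0.825% downward. Both comparisons with empty vector cells share that library, so their common direction is not independent evidence.

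**Figure D3:**
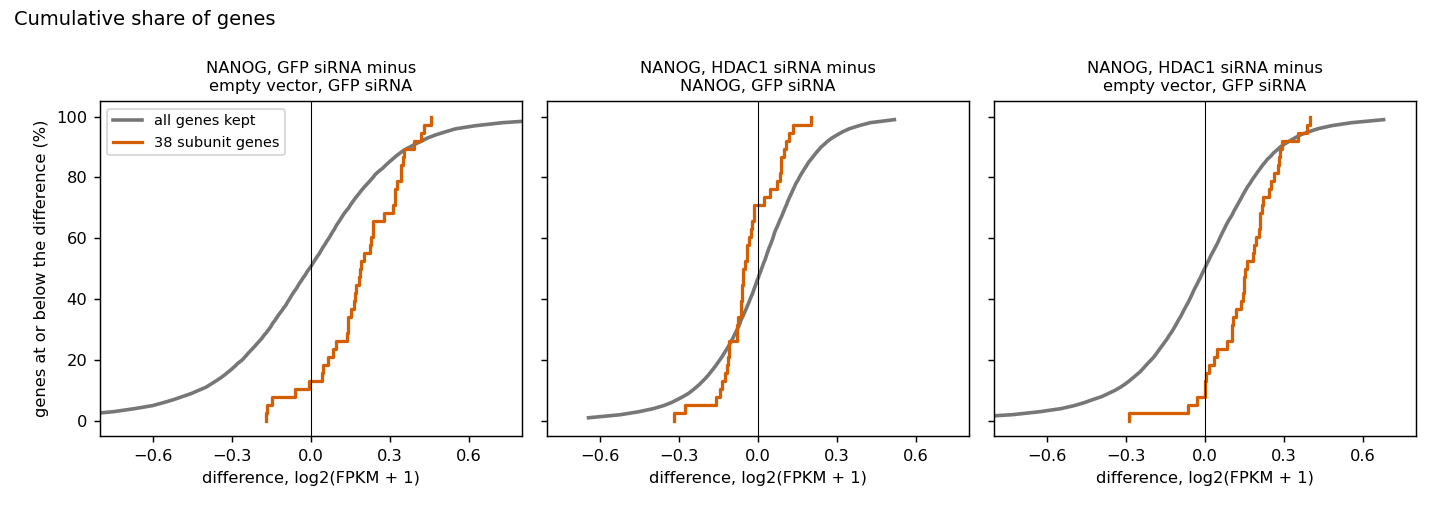
Share of genes (%) at or below each difference on the log2(FPKM + 1) scale, for the 38 subunit genes and for all 11400 genes, in the 3 comparisons. The curve of the subunits is shifted to the right in the left and right panels (medians of 0.19 and 0.15) and slightly to the left in the middle panel (-0.05).

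Summed over the 40 genes, the subunits took 0.946% of all FPKM outside small RNAs in empty vector cells, 1.08% in NANOG and 1.09% in HDAC1 siRNA cells. Differences varied little with level: across the 38 genes, Spearman's rho between the NANOG difference and mean FPKM was 0.16, a description of genes that share the same libraries. For 20 of the 38, RefSeq lists pseudogene symbols (13 of them for PSMC1 and 6 for PSME2), so that reads may be shared with near-identical copies and their values are uncertain. The median NANOG difference was 0.20 for these 20 genes and 0.19 for the 18 without such a copy, and 16 of those 18 were higher.

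Other genes of the pathway were taken from 5 lists. Of all genes, 49.2% were higher with NANOG and 49.8% with NANOG and HDAC1 siRNA than in empty vector cells. The lists are short, and their counts were not tested against these shares. Assembly genes include PAAF1 (a protein that binds the ATPases of the base) beside the chaperones of the core. Of these genes 5 of 6 were higher with NANOG (median 0.09), and 6 of 6 with NANOG and HDAC1 siRNA than in empty vector cells (median 0.17). PSMG1, a chaperone of the alpha ring, was at 28.6 FPKM in empty vector, 40.6 FPKM in NANOG and 38.9 FPKM in HDAC1 siRNA cells, a difference of 0.49 with NANOG that is above that of any subunit. POMP, which helps to build the beta ring, was at 50.7, 57.5 and 57.004 FPKM (0.18). PSMG2 was at 59.4, 60.7 and 66.8 FPKM and PSMG4 at 16.8, 16.1 and 19.2 FPKM, both highest with HDAC1 siRNA.

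Among 8 proteasome-bound genes 6 were higher with NANOG (median 0.18) and 5 with NANOG and HDAC1 siRNA (median 0.11). SHFM1, the smallest subunit of the lid and no member by its symbol, was at 153 FPKM in empty vector, 349 FPKM in NANOG and 151 FPKM in HDAC1 siRNA cells. It was the 1 gene of these lists that passed 2-fold, and the NANOG library alone was high, as it was for HDAC1. TXNL1, a thioredoxin-like protein bound to the regulatory particle, was at 32.5, 52.6 and 37.97 FPKM (0.68 with NANOG and 0.22 with HDAC1 siRNA against empty vector). The deubiquitinase UCHL5 was at 20.7, 23.9 and 24.4 FPKM (0.20). KIAA0368, the human form of the yeast scaffold Ecm29, was at 32.8, 25.3 and 31.96 FPKM (-0.36).

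Of 5 genes for transcription of the subunits and processing of its factor, 4 were higher with NANOG (median 0.15) and 3 with NANOG and HDAC1 siRNA (median 0.03). NFE2L1, the factor known to raise subunit genes, was itself lower, at 136 FPKM in empty vector, 89.004 FPKM in NANOG and 99.6 FPKM in HDAC1 siRNA cells. Its differences from empty vector cells were -0.60 and -0.44, opposite in sign to most subunits. The activity of this factor, which also depends on processing of its protein, was not measured. DDI2, the protease that cleaves it, was at 4.82, 5.86 and 5.02 FPKM (0.24 with NANOG). VCP, the ATPase that extracts it from the membrane, was at 155, 172 and 142 FPKM (0.15 with NANOG and -0.12 with HDAC1 siRNA against empty vector). The related factor NFE2L2 was at 54.2, 59.3 and 65.9 FPKM (0.13 and 0.28).

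The genes that supply and carry ubiquitin had no common direction. Of 5 genes for ubiquitin and its activating enzymes 2 were higher with NANOG (median -0.01) and 1 with NANOG and HDAC1 siRNA (median -0.03). The polyubiquitin gene UBB was at 670.4 FPKM in empty vector, 792 FPKM in NANOG and 783 FPKM in HDAC1 siRNA cells (0.24). UBA6, an alternative activating enzyme, was at 33.8, 25.01 and 26.04 FPKM (-0.42), whereas the main enzyme UBA1 was at 116, 129 and 113 FPKM (0.16). Of 6 shuttle genes 3 were higher with NANOG (median -0.00) and 5 with NANOG and HDAC1 siRNA (median 0.04). SQSTM1, an autophagy receptor for ubiquitinated cargo, was at 352, 696 and 581 FPKM, with differences of 0.98 and 0.72 from empty vector cells. UBQLN4 was at 27.1, 22.8 and 28.1 FPKM (-0.24 with NANOG) and UBQLN1 at 78.6, 77.2 and 84.8 FPKM.

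**Figure D4:**
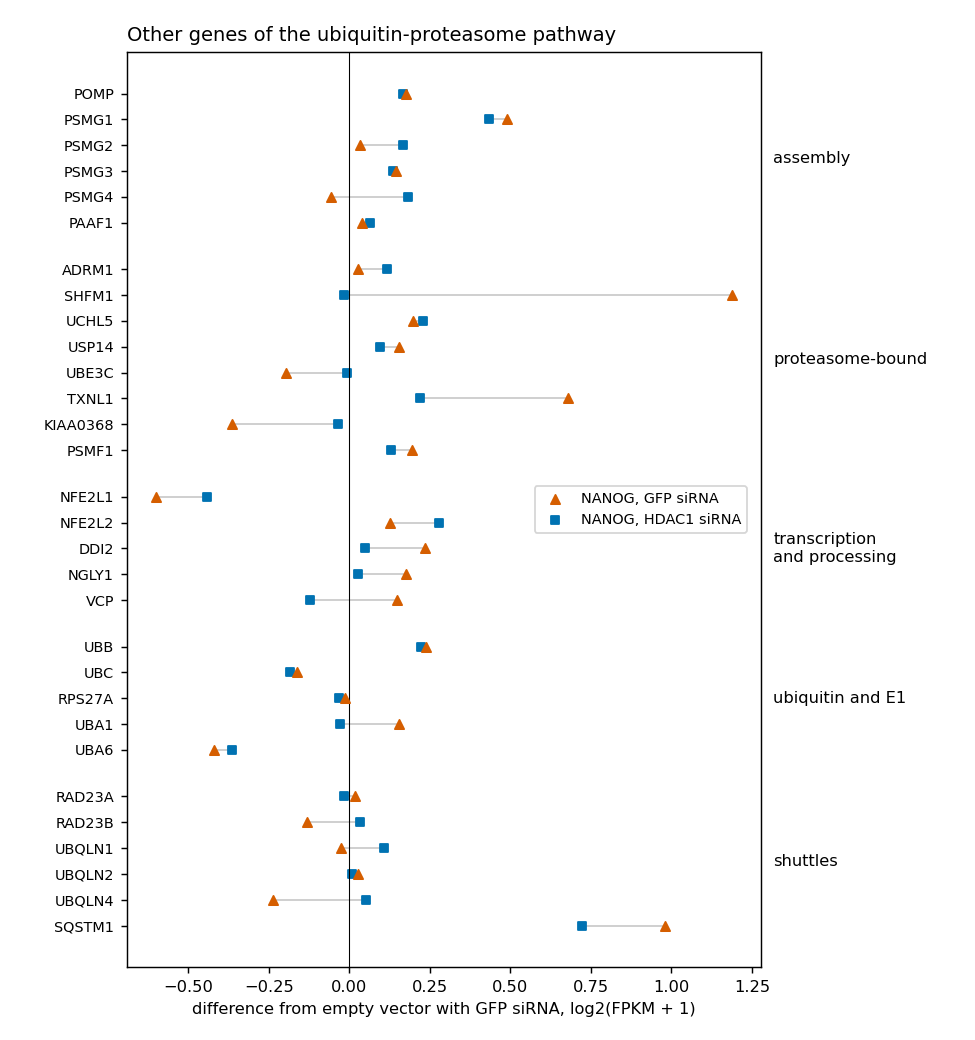
Difference from empty vector cells on the log2(FPKM + 1) scale of 30 other pathway genes, for NANOG cells (triangles) and HDAC1 siRNA cells (squares), 1 library each. SQSTM1 lies right of 0 in both and NFE2L1 and UBA6 left of 0 in both, whereas SHFM1 is high in NANOG cells alone.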

How the data were processed

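Total RNA of 3 groups of CaSki cells was sequenced, with 1 library per group, grouped by title. Trizol RNA (2 ug) went into TruSeq stranded total RNA libraries, per the labels' protocols. TopHat2, Cufflinks and the hg19 build are named in the submitters' processing notes; no source used here gives versions, annotation or strand handling. FPKM values as the authors deposited them are relative, so a few very abundant RNAs lower all others.

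Differences of log2(FPKM + 1), where 1 FPKM is the pseudocount, were computed here for 11400 genes that averaged 1 FPKM or more. The 11400 genes hold no small RNAs. Small RNA symbols, 1622 of all 23277 genes, were left out at any level, but they stayed in the library sums used for TPM. The filter on level left 38 of 40 subunit genes. Counts used 1.2-fold and 2-fold. With 1 library per group there was no test. Members and lists were chosen with earlier results of these data known. All members were named, and of each other list the 2 genes with the largest difference per comparison; 1 gene of these lists is not reported here. Promoters came from RefSeq (GRCh38.p14), not the build of the values. The calculation was tested on simulated data. Software was matplotlib 3.10.9, scipy 1.17.1, pandas 2.3.3 and numpy 2.4.6 under Python 3.11.15.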

Additional observations from a re-analysis of the deposited data

How the results depend on the processing

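The median difference of the subunits between NANOG and empty vector cells stayed between 0.14 and 0.22 under 12 alternatives: pseudocounts of 0.1 and 0.5 FPKM, no filter and filters at 5 and 50 FPKM, small RNAs kept, TPM or other rescaling (equal upper quartiles, or a median log2 ratio of 0), activators and assembly factors left out, genes with pseudogene symbols left out, and the mean. The filter at 50 FPKM and the pseudogene step were added after seeing the data. In TPM, HDAC1 siRNA against NANOG cells turned from -0.05 to 0.13, with 8 subunits at least 1.2-fold apart, all higher (36.6% of all genes were called), in place of 2, all lower; HDAC1 siRNA against empty vector cells moved from 0.15 to 0.29, with 24 subunits in place of 8 (36.7% of all genes). The medians over all genes moved to 0.18 and 0.13 in TPM, and the share of all 1.2-fold calls that were higher from 47.7% to 89.3% and from 44.3% to 76.2%. At 1.5-fold and at 2-fold, 0 subunits were called in each comparison, where 1.5-fold called 8.74%, 2.11% and 5.24% of all genes. Without genes that have pseudogene symbols, 5, 1 and 4 of 18 were called in place of 13, 2 and 8 of 38, each time for NANOG against empty vector, HDAC1 siRNA against NANOG and HDAC1 siRNA against empty vector cells. Of all genes, 37.5%, 17.3% and 26.6% were called in these comparisons, both directions together. HDAC1 siRNA against NANOG cells had 1 call with a filter at 50 FPKM (14.4% of all genes were called) and 1 without activators and assembly factors (17.3%), since each removes PSMD5. No paired analysis was possible because each group held 1 library without a replicate number. The number of fragments behind each FPKM value is unknown, so no counting error could be given, and differences of this size between 2 cultures of the same kind were not measured.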
